A study of Mus musculus with 18 samples.

Results

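ATAC-seq, in which a transposase inserts sequencing adapters into DNA that is not covered by nucleosomes, was used to compare open chromatin in regulatory T cells (Tregs) with and without CHD8. Among 79223 peaks on chromosomes 1 to 19, outside the stretch of chromosome 14 from 40 to 55 Mb, 401 had lost a large part of their signal in both Chd8-/- mice, and these lost peaks are described here. A peak was counted as lost when log2(TPM + 0.84) was lower than in the WT mouse by 1 or more in each of the Chd8-/- mice. TPM is a read count divided by peak length and then scaled so that the values of each library add up to the same total. The 0.84 TPM added to every value keeps peaks with almost no signal from giving extreme ratios. The full table held 81800 peaks, of which 577 lay in the excluded stretch of chromosome 14 and 2000 on chromosomes X, Y or the mitochondrial chromosome. The lost peaks were chosen by the ATAC values of these same 3 mice, so the size of their change is a description and was not tested.

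Tregs are CD4+ T cells that hold other immune cells in check and depend on the transcription factor Foxp3. CHD8 belongs to the CHD family of chromatin remodelers, enzymes that use ATP to slide or evict nucleosomes, and can act where it is bound or, through the factors it regulates, elsewhere. A peak of ATAC signal marks a promoter, an enhancer or another regulatory element that is open in at least some of the cells, so a lower peak can mean that fewer cells open the element or that the cells open it less, and the assay on bulk cells cannot tell these apart.

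Sorted CD4+YFP+ Tregs of 1 WT mouse and 2 Chd8-/- mice were used for ATAC-seq. CHIP-seq with an antibody against CHD8 used CD4+CD25+ splenic Tregs from 2 WT mice, 1 male and 1 female. The methods give the mice for CHIP-seq as C57B6/J. RNA-seq used YFP+ Tregs of 2 WT and 2 Chd8-/- mice, 1 male and 1 female of each genotype. All cells were from spleen and, per the methods, from mice at 5 to 7 weeks of age. The Chd8-/- mice carried 2 floxed Chd8 alleles with Foxp3YFP-Cre, which places YFP and Cre under the X-linked Foxp3 locus and so limits the deletion to Foxp3-expressing cells. The sample labels of the control mice also name floxed Chd8, with heterozygous Foxp3YFP-Cre, and the labels list poly(I:C) injection for all mice. The paper instead gives its WT mice as Chd8+/+ with Foxp3YFP-Cre, heterozygous only in some females, and does not mention poly(I:C). A male, such as the WT mouse of ATAC-seq, cannot be heterozygous at an X-linked locus. These conflicts could not be resolved here. The WT mouse in ATAC-seq was male and the Chd8-/- mice were 1 male and 1 female. Because both Chd8-/- mice were set against the same single WT mouse, a value peculiar to that mouse enters both differences, and no estimate of the spread among WT mice could be made.

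In the WT mouse the 401 lost peaks were modest peaks, with a median of 7.4 TPM and a range from 3.0 to 37.1 TPM. The median was 2.5 TPM in Chd8-/- mouse 1 (range 0 to 16.8) and 2.4 TPM in Chd8-/- mouse 2 (range 0 to 17.1). The 3 ranges overlapped across peaks, but within every lost peak both Chd8-/- values lay below the WT value, as the rule required. For comparison, the median over all eligible peaks was 8.3 TPM in WT, 8.7 TPM in Chd8-/- mouse 1 and 8.3 TPM in Chd8-/- mouse 2. Because TPM is scaled to the same total in each library, these medians cannot show whether accessibility as a whole differed between the mice.

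**Figure D1:**
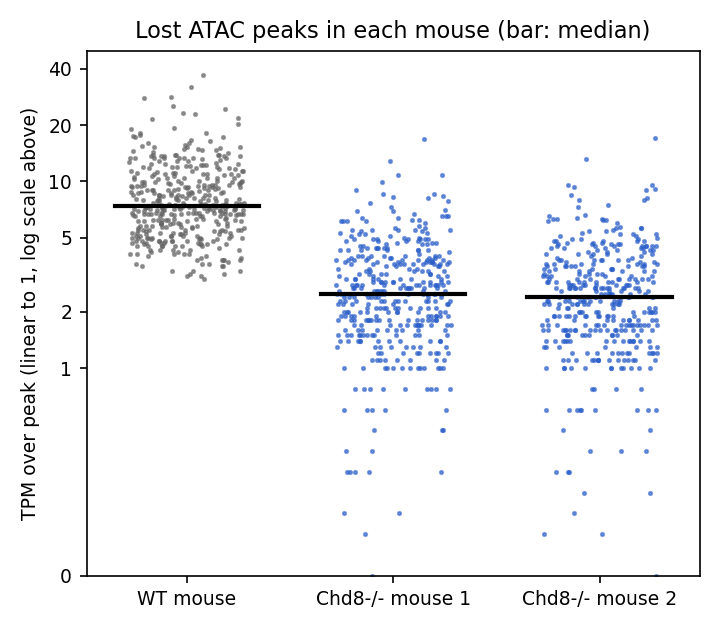
TPM of each of the 401 lost peaks in the WT mouse and in both Chd8-/- mice (1 point per peak, black bar at the median; the axis is linear to 1 TPM and logarithmic above). The medians are 7.4 TPM in WT, 2.5 TPM in Chd8-/- mouse 1 and 2.4 TPM in Chd8-/- mouse 2.

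Most losses were partial. The mean of the Chd8-/- mice was 33.6% of the WT value at the median lost peak, with a middle range of 28.2 to 37.4%. The median log2 difference was -1.27 in Chd8-/- mouse 1 and -1.31 in Chd8-/- mouse 2. In 240 of the 401 peaks both differences lay between -1 and -1.5, in 52 both were -1.5 or lower, and in 10 both were -2 or lower. Signal was listed at 0 in both Chd8-/- mice at 1 peak, and 11 peaks were under 1 TPM in both.

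The rule selected 0.506% of eligible peaks in this direction, and its mirror image, a log2 difference of 1 or more in both Chd8-/- mice, selected 1294 peaks or 1.63%. Lost peaks therefore made up 23.7% of peaks past either cutoff. That share depended on scaling, since after quantile normalization of the 3 libraries 610 peaks were lost and 640 gained, which puts the lost share at 48.8%, and all 401 peaks were among the 610.

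**Figure D2:**
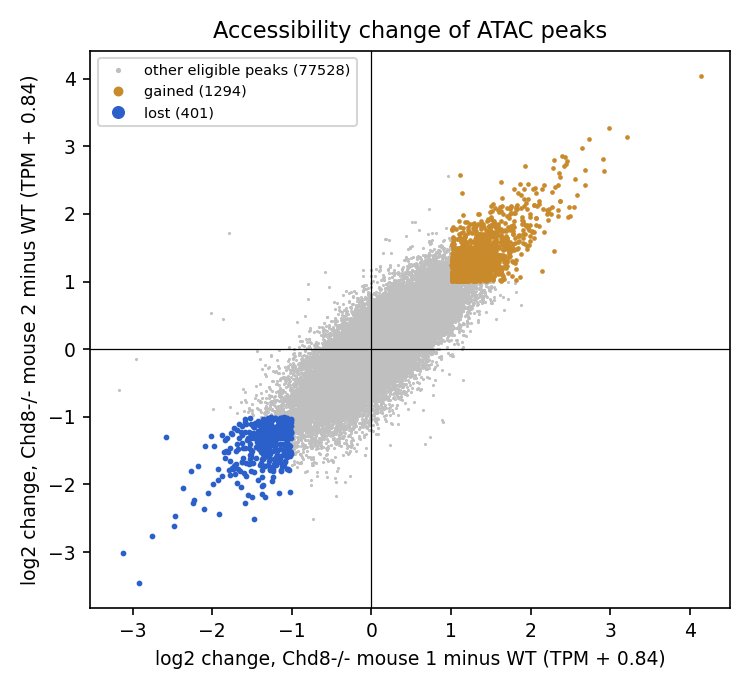
Log2 difference from the WT mouse in Chd8-/- mouse 1 (horizontal) and Chd8-/- mouse 2 (vertical) for every eligible peak, with the 401 lost peaks in blue and the 1294 gained peaks in orange. Both axes use the same WT mouse, and the lost peaks reach less far from 0 than the gained peaks.

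The rule asked for a low value in both Chd8-/- mice, so their likeness at the lost peaks is partly set by it. Mouse 2 minus mouse 1 on the log2 scale had an SD of 0.301 across the lost peaks and 0.271 across all eligible peaks. Their log2 values were more than 0.5 apart at 51 of the 401 peaks and 1 or more apart at 3. Mouse 2 was the lower one at 213 peaks, mouse 1 at 150, and both had the same TPM at 38. The count leaned on requiring both mice: mouse 2 alone put 1288 peaks past the cutoff and mouse 1 alone 706.

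Values near the cutoff were as follows. Just inside lay chr12:114972192-114972311 (mm39, as for all positions here), with 11.9 TPM in WT and 5.5 and 4.6 TPM in the Chd8-/- mice, and chr9:121476203-121476354, with 9.9 TPM in WT and 4.5 and 3.7 TPM. Just outside lay chr8:126117890-126118857, with 20.8 TPM in WT and 10.0 and 9.7 TPM in the Chd8-/- mice, and chr7:126578085-126578448, with 18.2 TPM in WT and 8.7 and 8.3 TPM.

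The lowest differences belonged to a pair of peaks on chromosome 14 with 1718 bp between them. At chr14:60366995-60367314 the WT mouse had 13.8 TPM and the Chd8-/- mice 1.1 and 0.5 TPM, a mean log2 difference of -3.18. At chr14:60369032-60369305 the values were 10.8 TPM in WT and 0.5 and 0.6 TPM in the Chd8-/- mice, a mean log2 difference of -3.07. Both lie a few Mb past the excluded stretch, in a part of chromosome 14 that is described further on.

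The peaks ranked 3 and 5 by mean log2 difference were neighbours on chromosome 6. The peak at chr6:28929232-28929720 had 6.2 TPM in WT and 0.2 TPM in each Chd8-/- mouse. Its neighbour at chr6:28927914-28928244 had 3.8 TPM in WT and was listed at 0 in both Chd8-/- mice, the only such lost peak. Another lost peak at chr6:28931881-28932024 kept more signal, with 8.7 TPM in WT and 3.3 and 3.0 TPM in the Chd8-/- mice. These are the only ATAC peaks in the 4110 bp that they span, a stretch set by the lost peaks themselves. Each had 4 or 5 other ATAC peaks within 50 kb, counting the lost ones.

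Other peaks with large differences were spread over the genome. The peak ranked 4, chr3:130706172-130706391, had 5.5 TPM in WT and 0.3 and 0.2 TPM in the Chd8-/- mice. A stronger element, chr12:8894790-8895073, had 18.2 TPM in WT and 3.2 and 3.1 TPM without CHD8. The remaining peaks among the 12 lowest lay on chromosomes 2, 4, 5, 11, 13 and 16, with WT values from 5.6 to 15.7 TPM. The Chd8-/- values at these 6 peaks ran from 0.5 to 2.7 TPM.

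Strong elements were rare among the lost peaks. Only 11 of 401 (2.74%) had 20 TPM or more in WT, against 17.8% of all eligible peaks and 0 gained peaks. The WT value enters the rule, so these shares are partly set by the selection. The highest was chr19:5560300-5561026, with 37.1 TPM in WT and 16.8 and 17.1 TPM in the Chd8-/- mice. After it came chr10:41756778-41757106, with 31.8 TPM in WT and 10.8 and 9.3 TPM, and chr11:69259313-69259402, with 28.2 TPM in WT and 12.8 and 13.1 TPM. The mean of the Chd8-/- mice at these 3 peaks was 45.7%, 31.6% and 45.9% of the WT value. The next in order were chr15:97364906-97365126, with 27.8 TPM in WT and 10.8 and 7.9 TPM, and chr9:31196147-31196362, with 25.3 TPM in WT and 8.3 and 8.5 TPM.

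Lost peaks were also narrow. Their median width was 183 bp, against 260 bp for gained peaks and 324 bp for all eligible peaks. Peaks under 200 bp made up 55.6% of the lost peaks, 29.1% of the gained peaks and 27.5% of eligible peaks, and peaks over 500 bp made up 3.99%, 10.4% and 28.7%. When eligible peaks were split by width into 4 groups of similar size (70 to 189, 190 to 324, 325 to 549 and 550 to 4594 bp), the share lost was 1.07%, 0.626%, 0.259% and 0.0709% from the narrowest to the widest. Gained peaks did not follow this order, with 1.66%, 2.56%, 1.84% and 0.466%. The rule sets no limit on width, but it uses TPM, which is scaled by peak length, and peaks were called on the same libraries. The shares by width are therefore not independent of the rule.

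Of the 14 lost peaks in the widest group (550 bp or more), the longest was chr17:33109967-33110864, with 24.5 TPM in WT and 9.9 and 9.5 TPM in the Chd8-/- mice. Next in length, chr11:53694418-53695217 had 8.7 TPM in WT and 2.7 and 2.9 TPM.

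**Figure D3:**
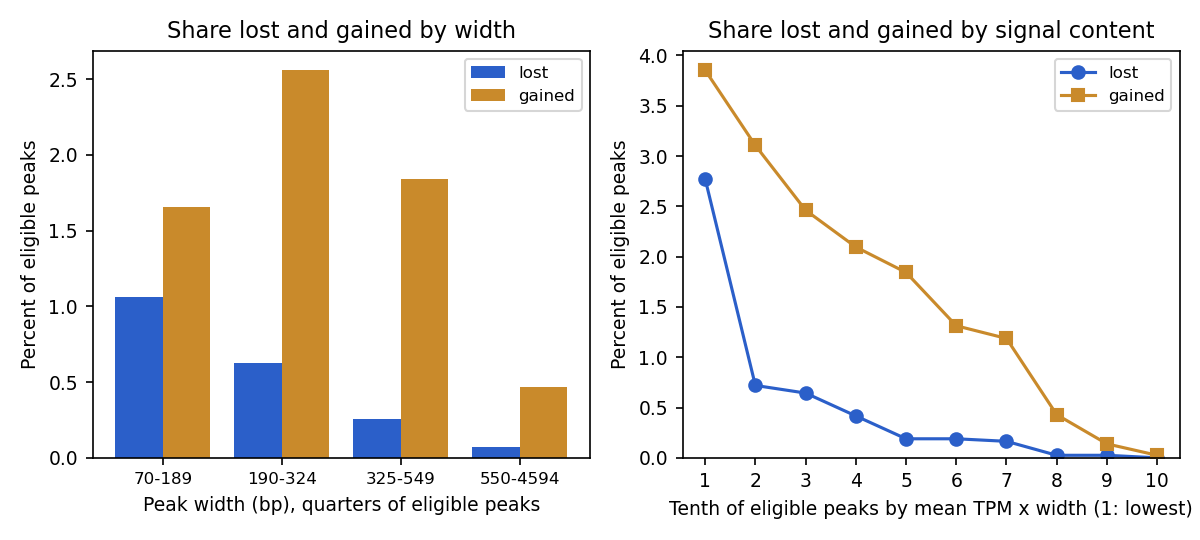
Percent of eligible peaks that were lost (blue) or gained (orange), by peak width in 4 groups (bp, left) and by signal content in 10 groups, the mean TPM of the 3 mice multiplied by width (right). The share lost goes from 1.07% in the narrowest to 0.0709% in the widest group, and from 2.77% in the lowest to 0% in the highest group by content.

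The signal content of a peak, its TPM multiplied by its width, was low for most lost peaks. With eligible peaks split into 10 groups by this content, averaged over the 3 mice, 2.77% of the lowest group were lost, and 213 of the 401 lost peaks came from it. None of the 7923 peaks of the highest group was lost. The content includes the Chd8-/- values, so a lower value there moves a peak down this scale.

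The number of reads is not given in the table. If whole reads were counted, the smallest values above 0 limit what 1 read can be worth, and the median lost peak then held at least 87.8 reads in WT, 34.1 in Chd8-/- mouse 1 and 30.7 in Chd8-/- mouse 2. The median eligible peak held at least 166, 213 and 204 reads. Among peaks of at least 200 bp, 178 were lost and 918 gained.

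CHD8 itself was mapped by CHIP-seq in separate samples, which the rule did not use. Of the 401 lost peaks, 1 overlapped a CHD8 CHIP peak by 1 bp or more (0.249%, 95% Wilson interval 0.044 to 1.40%, which covers counting error only). Among gained peaks the share was 0.618% (8 peaks), and among all eligible peaks 7.42% (5876 peaks). No test of these shares was run, since peaks of one library are not replicates. The paper, counting by its own rule, also reports peaks with lower accessibility at CHD8 binding sites, and its count is not comparable with these shares.

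Width moved with this contrast. Overlap with CHIP peaks was found at 0.454% of eligible peaks in the narrowest of the 4 width groups, then at 0.867%, 1.84% and 26.6% in the wider ones. Among the lost peaks the counts in these groups were 1 of 211, 0 of 125, 0 of 51 and 0 of 14. The part of width in the low overall share was not tested beyond these values.

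**Figure D4:**
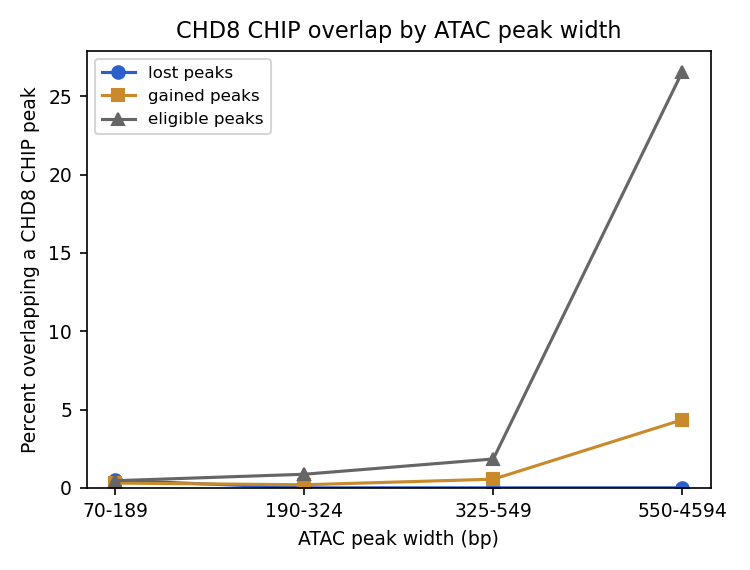
Percent of lost, gained and eligible ATAC peaks that overlap a CHD8 CHIP peak, in 4 groups of ATAC peak width (bp). The share of eligible peaks is 0.454% in the narrowest group and 26.6% in the widest, and the single overlapping lost peak is in the narrowest.

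The lost peak under CHD8 was chr11:69259313-69259402, one of the strongest lost peaks. It lies at the edge of a CHIP peak, chr11:69259350-69260337, with 189.3 and 160.6 TPM in the CHIP mice, against medians over CHIP peaks of 140.2 and 133.3 TPM. One more lost peak, chr4:118216467-118216608, was 574 bp from a CHIP peak, chr4:118217182-118217528, with 167.0 and 151.9 TPM. It had 15.7 TPM in WT and 2.7 TPM in each Chd8-/- mouse, and is among the 12 lowest by log2 difference. These 2 were all the lost peaks within 1 kb of CHD8 (0.499%, against 9.88% of eligible peaks).

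At larger distances the lost peaks stood less apart. A CHIP peak lay within 10 kb of 41 lost peaks (10.2%), against 9.27% of gained and 19.1% of eligible peaks, and within 100 kb of 60.1%, 52.1% and 66.4%. The median distance to the nearest CHIP peak was 76832 bp for lost, 93595 bp for gained and 53546 bp for eligible peaks.

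One lost peak, picked out after its values were seen, lay near CHD8 CHIP peaks that the study labels with Cdkn1a, the gene of the cell cycle inhibitor p21. The peak chr17:29260360-29260441 had 6.1 TPM in WT and 1.1 and 1.9 TPM in the Chd8-/- mice. It lies 8356 bp from chr17:29251195-29252004 (179.3 and 217.2 TPM in the CHIP mice) and 33325 bp from chr17:29226569-29227035 (131.9 and 176.9 TPM), both of which carry that label. The position of the gene itself in mm39 was not used here. The paper, by contrast, counts Cdkn1a among genes with higher accessibility in Chd8-/- Tregs and reports the increase at CHD8 binding sites. Its surroundings did not move with it as a block: the 22 other ATAC peaks within 50 kb had log2 differences from -1.05 to 2.86, with medians of 0.11 and 0.27 in the Chd8-/- mice. From position 29273509 upward, all of these peaks were higher in both Chd8-/- mice, while those at lower positions were mixed. The ATAC peaks that contain the CHIP peaks had log2 differences of -0.25 and -0.26 (chr17:29226307-29227488), and -0.23 in both mice (chr17:29250822-29252087). The highest of them, chr17:29309853-29309976, had 2.0 TPM in WT and 14.1 and 19.8 TPM in the Chd8-/- mice. Cdkn1a RNA was 0.2 and 0.3 TPM in WT and 190.7 and 150.1 TPM in Chd8-/- Tregs, a log2 fold change of 7.09 ± 0.31 (SE) with an adjusted p of 0.0807 in limma.

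Along the chromosomes most lost peaks stood alone. Of the 401, 323 had no other lost peak within 50 kb, and 78 (19.5%) formed 35 runs of 2 or more. Among gained peaks 30.3% lay in runs of gained peaks, but with 1294 peaks against 401 the shares are not comparable. There were 28 pairs and 7 runs of 3 or more. The run with most peaks, 4 on chromosome 1 from 150317600 to 150337730, held no other ATAC peak. Its peaks had 6.8, 5.0, 7.8 and 8.8 TPM in WT, and between 1.1 and 3.3 TPM in the Chd8-/- mice. On chromosome 13 from 38161175 to 38163722, 3 lost peaks and no others lay within 2547 bp, with WT values of 7.5, 7.0 and 7.1 TPM and Chd8-/- values from 2.1 to 2.7 TPM. On chromosome 11 from 90403439 to 90477389, by contrast, the span of the 3 lost peaks also held 3 peaks that were not lost.

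Peaks around the lost ones were also a little lower. The 3412 eligible peaks within 50 kb of a lost peak, lost peaks left out, had median log2 differences of -0.10 and -0.11 in the Chd8-/- mice, against 0.03 and 0.02 for the other 75410. A difference of -0.4 or lower in both mice was found in 14.6% of these neighbours and 5.45% of the others, and one of 0.4 or higher in 5.95% and 13.0%. Only 28 neighbours (0.821%) were gained, against 1.68% of the others. These values come from the same WT and Chd8-/- mice as the rule. Lost peaks were not in sparse regions, since the median number of other peaks within 50 kb was 8 for both lost and eligible peaks and 5 for gained peaks.

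Every autosome held lost peaks, at shares from 0.337% of peaks on chromosome 16 (10 of 2969) to 0.702% on chromosome 9 (32 of 4561). Chromosome X had none of 1951 peaks, while 26 X peaks were gained. An upper bound of 0.154% (3 divided by 1951) covers counting error only and not the spread among mice. The median log2 difference of X peaks was 0.05 and 0.09. The WT mouse was male and 1 of the Chd8-/- mice female, the names of the ATAC columns do not give the sex, and the part of sex in the X values was not tested.

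Chromosome 14 stood apart. Chd8 lies on this chromosome, and in the stretch from 40 to 55 Mb, which the rule leaves out, 74 of 577 peaks (12.8%) met the same cutoff and 50 were gained. In the next 10 Mb, which the rule keeps, 9 of 500 peaks (1.8%) were lost, among them both top-ranked peaks, and 30 (6.0%) were gained. A run of 3 lay there too, with chr14:56513256-56513499 at 6.6 TPM in WT and 0.8 and 1.4 TPM in the Chd8-/- mice. On the rest of chromosome 14 the shares were 0.486% below the excluded stretch and 0.411% further past it, beside 0.506% of all eligible peaks, and the shares gained were 2.53% and 2.38%, beside 1.63%. Without chromosome 14, 382 lost peaks remained.

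To set the lost accessibility beside gene expression, the genes that the study lists as less accessible in Chd8-/- Tregs were taken, since the annotation used here is of another build than the peaks. The study chose these genes on the same ATAC samples, so the list is no independent evidence of lower accessibility. Its log2 cutoff was 0.4, a smaller change than the 1 asked of the lost peaks in both mice. The listed genes may therefore include loci with weaker loss, which was not checked, and need not match the 401 peaks one to one. The RNA-seq libraries are other samples. Of 307 listed names, 273 lie on autosomes other than chromosome 14, and 193 of these reached 1 TPM in 2 libraries or more and were tested.

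In RNA, Chd8 was 14.9 and 11.4 TPM in the Chd8-/- libraries and 24.7 and 27.6 TPM in WT, and Foxp3 was 232.1 and 205.3 TPM against 202.8 and 215.4 TPM, so Chd8 RNA remained and Foxp3 overlapped between groups. The second Chd8-/- library stood apart in markers of other cells. Its summed TPM was 1678 over 19 myeloid genes and 2103 over 12 stem and erythroid genes, against 76.9 and 13.0 in the first Chd8-/- library and 303 to 321 and 341 to 389 in WT. Summed B cell markers were 430 TPM there and 120 to 140 in the others, and CD8 and NK cell markers ranged from 128 to 349 TPM over the 4 libraries. Markers could not be checked in the ATAC data.

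RNA of the listed genes was lower more often than higher in Chd8-/- Tregs. Their median log2 fold change was -0.36, against -0.15 over all 15240 genes tested. A fold change of -1 or lower was seen for 37 of 193 (19.2%, against 11.6% of all genes) and of 1 or higher for 4 (2.07%, against 5.12%). Both Chd8-/- libraries lay below both WT libraries for 88 genes (45.6%, against 27.8%) and above them for 18 (9.33%, against 14.8%). No listed gene passed an adjusted p of 0.05 (limma, two-sided), nor did any gene of the whole table (0%). At an unadjusted p under 0.05 there were 33 listed genes (17.1%, against 10.2%), 29 of them lower in Chd8-/- (15.0%, against 6.3%). Without the second Chd8-/- library the median was -0.28 against -0.04 over all genes, and 33 listed genes were at -1 or lower. The counts of higher genes and of unadjusted p-values leaned on single libraries. Listed genes at 1 or higher were 13 without the first Chd8-/- library and 9 without the second WT library. The share over all genes at 1 or higher was not computed for these fits. The excess of listed genes at an unadjusted limma p under 0.05 did not hold in every fit with 1 library left out.

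Among listed genes of T cell biology, Klrg1, an inhibitory receptor of effector T cells, had 42.4 and 53.5 TPM in Chd8-/- and 101.5 and 82.0 TPM in WT, a log2 fold change of -0.92 ± 0.24 (SE; limma adjusted p = 0.433). Ubash3b, whose product dampens T cell receptor signaling, had 12.3 and 14.4 TPM against 26.2 and 36.9 TPM. For both genes the groups did not overlap, at differences that did not pass the adjusted test.

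Runx1, a transcription factor that works with Foxp3, differed less, with 31.6 and 34.1 TPM against 38.8 and 40.2 TPM in WT. Pdcd1, which encodes the checkpoint receptor PD-1, overlapped between groups, with 93.7 and 84.5 TPM against 90.6 and 144.0 TPM. Gzmb, the gene of the cytotoxic protease granzyme B, lies on chromosome 14 and was therefore outside the 193 genes. Its RNA was 11.7 and 3.1 TPM against 35.6 and 27.6 TPM. Klrg1, Pdcd1 and Gzmb are members of a fixed list of 40 effector Treg and activation genes. Summed over that list, TPM was higher in Chd8-/-, at 3400.9 and 3551.1 against 2453.8 and 2412.5 in WT. By flow cytometry the paper found more PD-1 protein on Chd8-/- Tregs.

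Of the 193 listed genes outside chromosome 14, among those with a mean of at least 5 TPM and groups that did not overlap, the lowest fold changes were those of Gm36738, A530021J07Rik, Gm10910, Ramp1, Zfp870 and Klf9. Gm36738 was listed at 0 in both Chd8-/- libraries, and A530021J07Rik had 0.0 and 0.1 TPM against 8.1 and 12.4 TPM in WT. Ramp1, a subunit of the receptor for calcitonin gene-related peptide, had 2.9 and 0.7 TPM against 16.1 and 14.6 TPM, a log2 fold change of -2.67 ± 0.54 (SE; limma adjusted p = 0.403). The paper places Ramp1 and Ubash3b among CHD8-bound genes with lower RNA and lower accessibility in Chd8-/- Tregs. Klf9, a Kruppel-like transcription factor, had 6.0 and 1.2 TPM against 19.9 and 13.3 TPM.

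Some listed genes had more RNA instead. Nme1, a nucleoside diphosphate kinase, had 233.8 and 350.8 TPM in Chd8-/- and 126.8 and 178.1 TPM in WT. Tut1, a uridylyltransferase, had 39.5 and 77.7 TPM against 26.3 and 26.2 TPM, and Chaf1b, a subunit of a histone chaperone used in DNA replication, had 15.9 and 16.3 TPM against 6.8 and 12.3 TPM. The others by the same rule were Gm41453, Lsm4 and Pln, at log2 fold changes of 3.18, 0.80 and 0.76. None of these passed the adjusted test either.

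**Figure D5:**
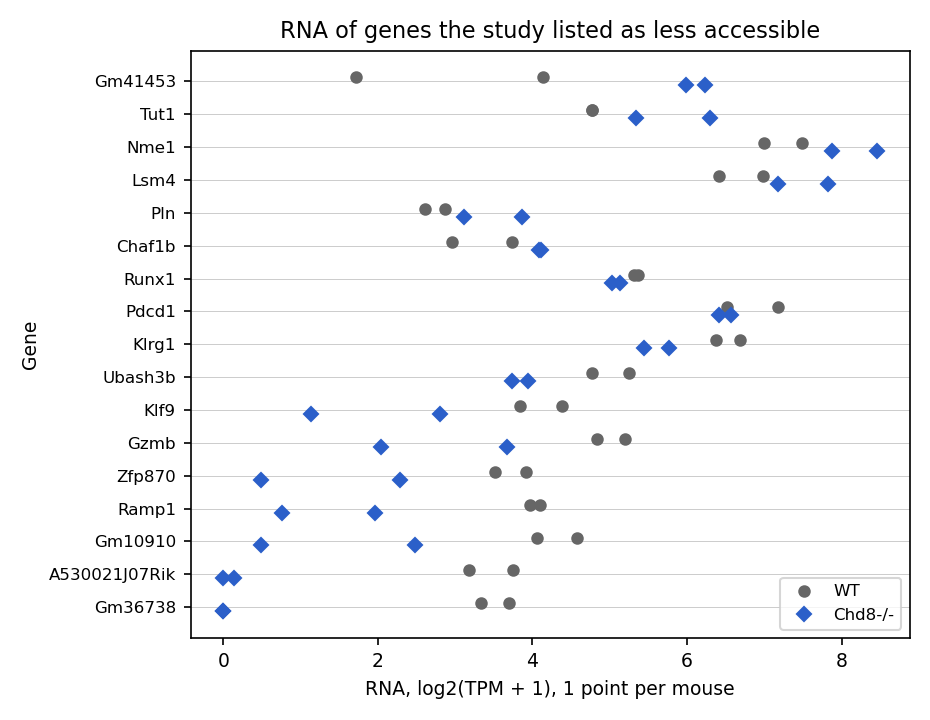
RNA as log2(TPM + 1) in each WT (grey circles) and Chd8-/- library (blue diamonds) for 17 genes that the study lists as less accessible in Chd8-/- Tregs, in order of log2 fold change. 12 of the genes were picked because their groups do not overlap, 6 at each end of the fold changes, so the number of genes on either side is set by that choice.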

How the data were processed

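For ATAC-seq and CHIP-seq the authors used HISAT2 (mm39), sambamba to drop duplicates and Macs2 for peaks, which were merged at an overlap of 50% and counted with featureCounts. They aligned RNA-seq reads to mm10 with STAR. All deposited values are TPM rounded to 0.1, with depth unknown. Samples were grouped by their labels. The labels list mm9 among the builds as well.

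ATAC values were compared as log2(TPM + 0.84) of each Chd8-/- mouse minus the WT mouse. RNA was compared with limma 3.58.1 in R 4.3.3 on log2(TPM + 1) with trend, over genes with 1 TPM or more in 2 or more libraries, two-sided, with Benjamini-Hochberg adjustment and calls at 0.05. Fold changes on this scale understate low genes. With 2 libraries a group an exact permutation test cannot go below p = 0.333. Both steps were tested on simulated data.

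The planned nearest genes, promoter shares and motifs needed an mm39 annotation and were not run, and the study's gene list took the place of nearest genes, with chromosomes from RefSeq (GRCm38) for all but 7 of 307 names. Named peaks are the 12 lowest, the 5 highest in WT, runs of 3 or more, CHIP overlaps and peaks next to the cutoff. Named genes are members of marker lists and up to 6 listed genes at each end with a mean of 5 TPM and no overlap. A member of the marker lists is not reported here. Members and lists were chosen with earlier results of these data known.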

Additional observations from a re-analysis of the deposited data

How the results depend on the processing

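The number of lost peaks was 774 with 0.1 TPM added, 5 with the median of 8.4 TPM added, 610 after quantile normalization, 10 at a cutoff of -2 and 178 among peaks of at least 200 bp, the last chosen after seeing the data. With only 1 Chd8-/- mouse it ranged from 706 to 1288. It was 432 with median changes set to 0, 475 with the chromosome 14 window kept and 401 with X and Y added. The share overlapping CHIP was 0% at a cutoff of -2 and 0% among peaks of at least 200 bp, where 10.1% of eligible peaks overlapped, and 0.142 to 0.621% with 1 Chd8-/- mouse left out.

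The number of listed genes at a log2 fold change of -1 or lower in RNA was 37 (19.2%, against 11.6% of all genes). It was 14 with 5 TPM added and 23 at a mean TPM of at least 5, where fewer genes were tested. The same count over all genes was not made for the alternatives. With 1 library left out, the number of listed genes at -1 or lower ranged from 33 to 49 and their median from -0.48 to -0.28. The median of all genes ranged from -0.25 to -0.04 in these fits. In the limma fit with a replicate block, 0 listed genes passed an adjusted p of 0.05. There 26 listed genes had an unadjusted p under 0.05, against 33 without the block. Over all genes these counts were 1336 and 1555. The numbers are not known to pair mice (correlation of deviations -0.01 over 2 pairs). Quantile normalization moved the median of all genes from -0.15 to 0.00 and the listed genes to -0.17, so their distance from all genes was -0.21 and -0.17. Foxp3 turned from a log2 fold change of 0.062 to -0.027 under quantile normalization and lay between -0.026 and 0.151 with 1 library left out. Cdkn1a had an adjusted p of 0.0347 in limma at a mean TPM of at least 5, over a range of 0.0347 to 0.971 across alternatives. There 2 genes of the whole table passed, and 0 in the other RNA fits. Gene positions, promoter shares, motifs and genes within 50 kb were not run. A WT mouse could not be left out of ATAC-seq, which has 1.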
